A study of Homo sapiens with 8 samples.

Results

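The 3 genes that encode the CCAAT-binding factor NF-Y (NFYA, NFYB and NFYC) and 6 genes of factors that often bind beside it in promoters (SP1, SP2, SP3, SP4, USF1 and USF2) were followed through the NF-Y peak lists of rhabdomyosarcoma cells. These 9 genes were taken by name out of 20037 that RefSeq lists as protein-coding. NF-Y peaks lay at 7 of the 9: NFYA, NFYC, SP1, SP2, SP3 and SP4 had one in all 6 libraries, NFYB had one in 3, and USF1 and USF2 had none.

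Binding was mapped by CUT&RUN, where an antibody brings a nuclease to the bound protein and the DNA around it is cut free and sequenced. Uninfected RH4 cells gave 1 library each for NFYB, NFYC and IgG. RH30 cells engineered with an inducible cytosine base editor received sgCtrl1, sgCtrl2, sgCCAAT2a or sgCCAAT2b, were selected with blasticidin, and were harvested 8 days after rapamycin started the editing. There was 1 NFYB library per guide and an IgG library for sgCtrl1. The base editing was aimed at an NF-Y motif in the promoter of PAX3, and the sgCCAAT2a and sgCCAAT2b libraries are called edited here after their guides' names. Both lines are labelled as PAX3-FOXO1 positive, and the labels do not say whether the engineered RH30 cells were 1 clone. For the RH30 libraries the labels disagree, since the titles say RH30 and the cell line entry says RH4, and the titles were followed. Of 8 libraries, the 6 made against NFYB or NFYC were used, while the 2 with IgG are not analysed here. No guide or antibody has a replicate, so values stand side by side with no test between conditions.

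NF-Y is a trimer: NFYB and NFYC pair through histone folds, and NFYA joins the pair and reads the CCAAT box. The motif is typically found a short way before the transcription start, in either orientation. SP1, SP2, SP3 and SP4 are zinc finger factors; SP1 and SP3 bind GC boxes, and SP2 is known to be recruited to promoters through NF-Y. USF1 and USF2 are helix-loop-helix zipper factors that bind the E-box CACGTG.

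The stretches that hold the CCAAT matches discussed with the peaks are given first, 5′ to 3′ on the strand of the gene, from RefSeq (GRCh38.p14). Capitals mark CCAAT, or ATTGG where the motif lies on the other strand. The SP2 stretch runs from 250 bases to 1 base before the start, the SP1 stretch from 230 to 50 and the NFYC stretch from 160 to 60 before its inner start. The SP4 stretch is the 86 bp peak of the RH4 NFYC list. For SP3 and NFYA, 30 bases around the motif are shown.
SP2, chr17:47895986-47896235, plus strand: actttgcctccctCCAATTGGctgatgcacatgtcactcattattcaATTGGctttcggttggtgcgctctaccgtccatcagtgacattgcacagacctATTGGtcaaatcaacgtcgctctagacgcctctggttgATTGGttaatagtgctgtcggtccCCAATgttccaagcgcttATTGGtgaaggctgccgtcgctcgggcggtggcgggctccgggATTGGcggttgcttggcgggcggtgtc
SP1, chr12:53379946-53380126, plus strand: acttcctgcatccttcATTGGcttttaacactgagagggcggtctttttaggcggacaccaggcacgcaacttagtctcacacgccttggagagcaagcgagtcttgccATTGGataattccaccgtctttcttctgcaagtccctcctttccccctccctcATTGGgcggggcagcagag
NFYC, chr1:40709206-40709306, plus strand: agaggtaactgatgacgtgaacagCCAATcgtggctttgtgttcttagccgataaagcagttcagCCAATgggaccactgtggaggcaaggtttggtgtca
SP4, chr7:21427839-21427924, plus strand: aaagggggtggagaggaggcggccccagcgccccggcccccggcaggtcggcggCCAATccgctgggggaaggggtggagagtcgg
SP3, chr2:173965432-173965461, minus strand: gacaggcgcctggaCCAATgagcacagccg
NFYA, chr6:41072994-41073023, plus strand: gcggcagcggcggctggagcctctgATTGG

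SP2 held more CCAAT matches than any other promoter examined. RefSeq entries of 300 bases (250 before to 50 after a start) cover 22199 promoters of protein-coding genes, and 8 of the 9 genes have at least 1 entry (NFYB has none). The SP2 entry held 8 matches of CCAAT on both strands, the highest number among the 22199 and reached by 1 entry. The 2 outermost matches share bases in CCAATTGG; with matches that share bases counted once, SP2 had 7 and was 1 of 3 entries with that number. Across all entries, 34.7% held at least 1 match, 3.61% at least 3 and 1.13% at least 4. The start of SP2-DT, a non-coding RNA on the other strand, lies 420 bp from the SP2 start, and the entries of both together held 10 different matches. SP1 held 3 matches, and the inner NFYC start held 3, of which the last begins on the start base itself. The other entries of the 9 genes held 1 or 0: the single match lay 74 bases before an SP3 start, 190 bases before the SP4 start and 45 bases after the NFYA start. The entries at the outermost USF1 and USF2 starts and at 1 SP1 and 1 SP3 start had no match in their 300 bases. A second USF1 start, 993 bp inside the gene, had a match 198 bases before it.

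From 0 to 4 CCAAT matches, entries with more matches more often lay under an NF-Y peak. Among entries with no match 0.297% overlapped a peak in all 6 libraries, with 1 match 6.04%, with 2 matches 22.5%, with 3 matches 50.4% and with 4 matches 63.1%. Above that the share did not climb steadily: it was 69.5% of the 59 entries with 5 matches and 66.7% of the 24 with 6 or more, where SP2 stands. A peak in at least 1 library lay over 81.5%, 78.0% and 79.2% of entries with 4, 5 and 6 or more matches. Of the 1186 entries with a peak in all 6 libraries 96.4% held a match, against 26.8% of the 18359 with no peak in any. With a peak in 1 to 5 libraries it was 61.4%. These shares describe letters and peaks in the same window and were not adjusted for base composition. The GC box GGGCGG (both strands) was in 56.3% of entries. It was in 81.4% of those with a peak in all 6 libraries, 79.5% with a peak in 1 to 5 and 51.3% with none. The E-box CACGTG, which reads the same on both strands, was in 8.34% of all entries and in none of those of the 8 genes. GGGCGG occurred 10 times in the entry at the second SP1 start, 5 times at USF2 and 4 times each at SP4 and at the first SP1 start; the NFYA entry held none.

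**Figure D1:**
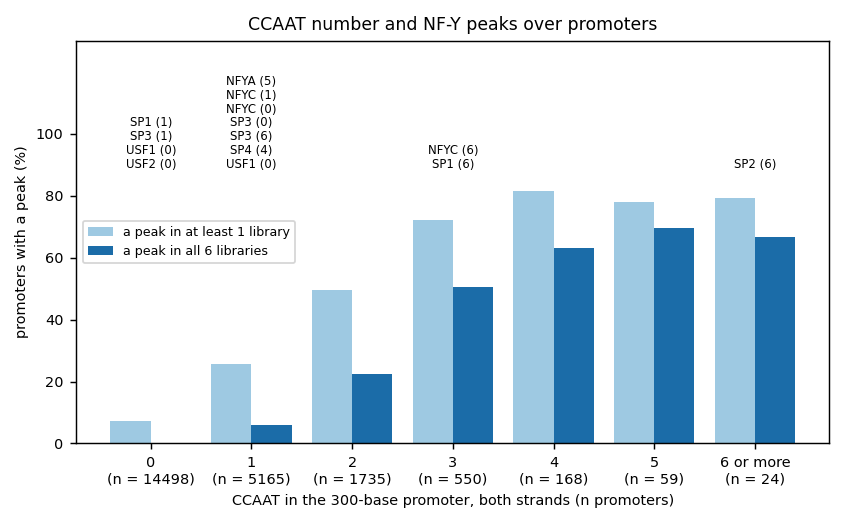
Share of the 22199 RefSeq promoter entries with an NF-Y peak (vertical axis, percent) by the number of CCAAT matches in their 300 bases (horizontal axis), for a peak in at least 1 library (light bars) and in all 6 (dark bars). Names above the bars give the entries of the 9 genes, 1 name per start site, with the number of libraries that have a peak over that entry in parentheses. The share with a peak in all 6 libraries is 0.297% at 0 matches and 50.4% at 3, where SP1 and the inner NFYC start stand.

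Genes were scored by peaks within 1000 bp of one of their ends. On this rule 7 of the 9 genes had a peak in RH4 NFYB, in RH4 NFYC and with sgCtrl1, and 6 with sgCtrl2, sgCCAAT2a and sgCCAAT2b. Among all protein-coding genes the share with a peak was 15.0%, 15.3%, 12.6%, 16.8%, 8.9% and 9.27% in the order RH4 NFYB, RH4 NFYC, sgCtrl1, sgCtrl2, sgCCAAT2a and sgCCAAT2b. A peak in all 6 libraries was found at 6 of the 9 genes and at 7.03% of all genes. No peak in any library was found at 2 of the 9 and at 78.3% of all genes. The median number of libraries with a peak was 6 for the 9 genes and 0 for all genes. The presence of a peak at most of these genes was already known when they were chosen, so the counts are a description.

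NFYA, the subunit that makes the base contacts in CCAAT, had its peak across or just inside the transcription start. The gene spans 41072974 to 41102403 of chromosome 6 (hg38) and its listed start is its lower end. In RH4 the NFYB peak ran from 402 bp outside to 323 bp inside the gene and the NFYC peak from 305 bp outside to 209 bp inside. In RH30 the peak centre lay inside the gene in every list, by 94 bp with sgCtrl1, 60 bp with sgCtrl2, 148 bp with sgCCAAT2a and 52 bp with sgCCAAT2b. Peaks at gene ends were centred outside the gene as a rule, with a median from 86 bp to 101 bp outside in the 6 lists, so the RH30 peaks of NFYA stood on the other side of the start. The RH4 peaks of NFYA were centred 39.5 bp and 48 bp outside. Its single CCAAT match in the promoter entry is 45 bases inside the gene too, and lay under the peak in 5 of 6 lists. The exception was sgCCAAT2a, whose peak began 72 bp inside. The promoter entry covers 50 bases after the start, so the bases under that peak were not part of it. A listed start of OARD1, a gene on the other strand, lies 360 bp outside NFYA, and a peak of all 6 lists lay within 1000 bp of it, so a peak here cannot be given to NFYA alone. OARD1 was singled out after its values were seen.

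NFYC, the partner of NFYB in the histone fold pair, had peaks at 2 sites: near its outer end and before an inner start. The promoter entry at the outer start was overlapped by a peak in 1 of 6 libraries, RH4 NFYB. The gene spans 40691704 to 40771603 of chromosome 1. The peak near the outer end lay inside the gene in all 4 RH30 lists, with its centre 418 bp in with sgCtrl1, 441 bp with sgCtrl2, 453 bp with sgCCAAT2a and 433 bp with sgCCAAT2b. In RH4 the NFYC peak ran from 233 to 567 bp inside, and the wider NFYB peak from 10 bp outside to 701 bp inside. RIMS3, a gene of synaptic vesicle release, has an end 362 bp from the NFYC end, and the non-coding NFYC-AS1 has one at 557 bp. The peaks thus lay between or across the ends of 3 overlapping genes and cannot be assigned to 1 of them. The CCAAT match 98 bases before the outer NFYC start was under no peak in any library. The promoter entry there covers 50 bases after the start. The RH30 peaks and the RH4 NFYC peak lay farther inside, so the bases under them were not part of that entry.

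The second NFYC peak was in all 6 libraries, about 17 kb inside the gene, and the gene-end rule does not count it. Its centre lay 17431 bp inside in RH4 NFYB and 17399 bp in RH4 NFYC, and 17410, 17429, 17410 and 17534 bp inside with sgCtrl1, sgCtrl2, sgCCAAT2a and sgCCAAT2b. A listed start of NFYC lies at 40709366, 17662 bp inside, so every one of these centres was before this inner start and within the gene. The pair of CCAAT matches 136 and 95 bases before it, shown in the NFYC sequence above, lay under both RH4 peaks and under the sgCCAAT2b peak. The peaks with sgCtrl1, sgCtrl2 and sgCCAAT2a ended 17504, 17527 and 17486 bp inside the gene and held neither match in full. Part of the bases under them lies before the first base of the promoter entry and was not searched.

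NFYB, the histone fold subunit that most of the libraries were made against, was the only one of the 9 genes with a peak in some lists and not in others. The gene spans 104117086 to 104138210 of chromosome 12. At its higher end the RH4 NFYB peak lay at 104138022 to 104138279, the RH4 NFYC peak at 104138094 to 104138221 and the sgCtrl1 peak at 104138070 to 104138258. Their centres lay 59.5, 52.5 and 46.0 bp inside the gene, so the 3 peaks stand on the same place. The sgCtrl2, sgCCAAT2a and sgCCAAT2b lists had no peak in the gene body, and their nearest peak lay 151, 187 and 187 kb from a gene end. The peak was thus missing from 1 of 2 control lists and from both edited lists. The NFYB peak was also narrow for RH4: 16.1% of NFYB peaks and 28.9% of NFYC peaks were narrower. With sgCtrl1 it stood at place 1863 of 4025 entries. The same presence in all 6 lists was found at 49 other genes (0.245% of all), and the 3 with peak centres closest to those of NFYB were METTL16, a methyltransferase of RNA, LCLAT1, an acyltransferase of phospholipids, and CNTD1, with mean differences of 37.0, 37.3 and 40.5 bp over 3 lists.

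SP1, the founding GC-box factor, had 1 peak before its start in every list and 1 further peak in a single list. The gene spans 53380176 to 53416446 of chromosome 12. The common peak was centred 243 bp outside the gene with sgCtrl1, 217 bp with sgCtrl2, 226 bp with sgCCAAT2a and 223 bp with sgCCAAT2b. These centres span 26 bp. The RH4 peaks were wide, 875 bp for NFYB and 681 bp for NFYC, and began 760 and 682 bp outside the gene. The farthest of the 3 ATTGG matches, 214 bases before the start, lay under the peak in all 6 lists, and those 121 and 68 bases before it lay under the RH4 peaks only. With sgCtrl2 a second peak lay 364 to 560 bp inside the gene, across another listed SP1 start 468 bp inside. The 300-base entry at that start held no CCAAT match and 10 GGGCGG matches.

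SP2, the SP factor known to act through NF-Y, had a peak in all 6 libraries, over 4 or all 8 of its CCAAT matches. No single match lay under a peak in every list. The gene spans 47896236 to 47931731 of chromosome 17. The RH4 peaks, 786 bp for NFYB and 708 bp for NFYC, covered all 8 matches. The narrower RH30 peaks covered 4 each. With sgCtrl1, sgCCAAT2a and sgCCAAT2b the peak was centred 226, 195 and 200 bp outside the gene and held the 4 matches farthest from the start, which begin 237, 234, 203 and 150 bases before it. With sgCtrl2 the centre lay 46.0 bp outside and the peak held the 4 nearest matches, at 112, 88, 70 and 27 bases. The RH30 peaks at SP2 had 13 bp in common, although each pair of lists overlapped. Per the file headers the RH30 peaks are centred on the highest pile-up of tags at a set size, so their edges do not give the limits of binding. The distances between neighbouring SP2 matches ran from 3 to 53 bp. The start of SP2-DT, on the other strand, lies 420 bp from the SP2 start, and a peak of all 6 lists lay within 1000 bp of it. Of the 8 matches, 3 are also in the SP2-DT entry. The peak and its matches thus cannot be given to SP2 alone.

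SP3, a close relative of SP1, had its peak inside the gene at an inner start. The gene spans 173900775 to 173965702 of chromosome 2, on the minus strand. The centre lay 286 bp inside with sgCtrl1, 296 bp with sgCtrl2, 236 bp with sgCCAAT2a and 296 bp with sgCCAAT2b, and 237 and 223 bp inside for NFYB and NFYC in RH4. A listed start lies 329 bp inside, and the CCAAT match 74 bases before it lay under the peak in all 6 lists. Among the 21 matches in the promoter entries of the 8 genes that have one, 2 lay under a peak in every list, this one and the farthest at SP1. The entry at the outermost SP3 start held no match. The entry at a further start, 1822 bp inside, held 1 match, which lay under no peak in any list.

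SP4, the SP factor best known from neurons, had 2 separate sites before its start. The gene spans 21428083 to 21514822 of chromosome 7. The far site was in all 4 RH30 lists, centred 640 bp outside with sgCtrl1, 592 bp with sgCtrl2, 647 bp with sgCCAAT2a and 644 bp with sgCCAAT2b. The near site was in 2 of them, centred 203 bp outside with sgCtrl1 and 248 bp with sgCCAAT2a, 1 control and 1 edited library. In RH4 the NFYC list held both sites as peaks of 330 and 86 bp, and the NFYB list held 1 peak of 877 bp over both. The CCAAT match of the entry lies under the near site in these 4 lists, and the far site is beyond the 300 bases. Having more than 1 peak at its ends was uncommon: of genes with a peak, 4.32% had 2 or more with sgCtrl1, 3.87% with sgCCAAT2a and 10.4% for RH4 NFYC.

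**Figure D2:**
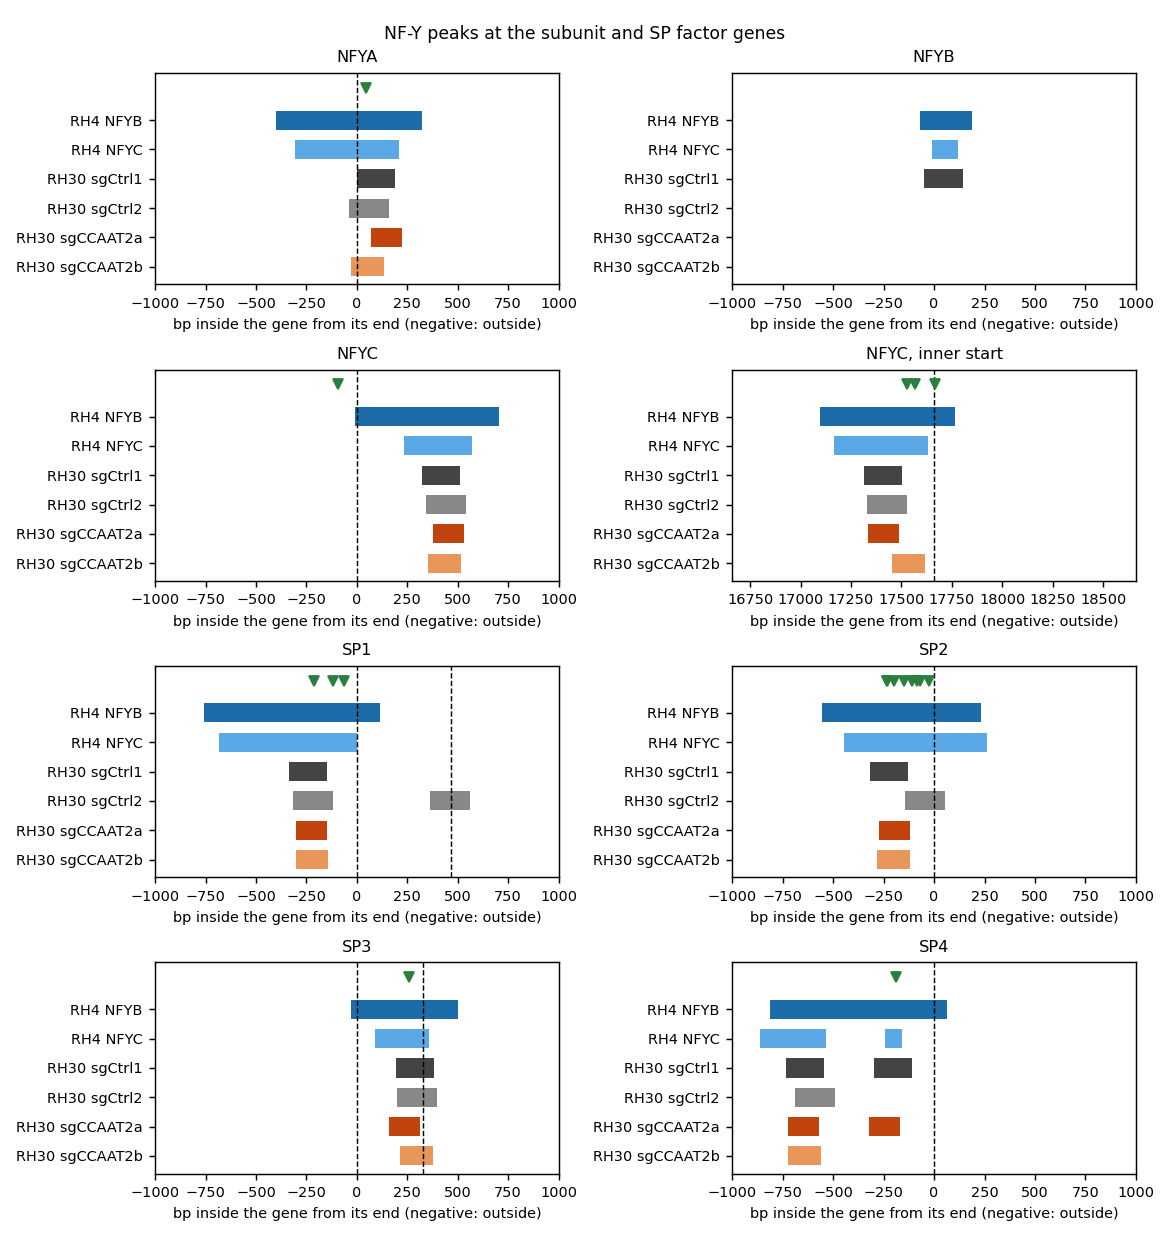
Peaks of the 6 libraries at the 7 genes that have one (bars, 1 row per library) by distance in bp from the gene end, positive inside the gene, with the inner start of NFYC in a panel of its own. Dashed lines mark listed start sites and triangles CCAAT matches in the promoter entries (NFYB has no entry). The sgCtrl2 bar at SP2 stands closer to the start than the other RH30 bars, and NFYB has bars in 3 of 6 rows.

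USF1 and USF2 had no peak in any list. USF1 spans 161039251 to 161045977 of chromosome 1, and USF2 spans 35268962 to 35279821 of chromosome 19. The nearest peak to an end of USF1 lay 120 kb away in both RH4 lists and 72.0, 114, 153 and 153 kb away with sgCtrl1, sgCtrl2, sgCCAAT2a and sgCCAAT2b. For USF2 the nearest lay 349 and 306 kb away in RH4 NFYB and NFYC and 107, 33.5, 349 and 317 kb away in the RH30 lists in the same order. A list holds only peaks that passed the caller, so binding below that threshold would not be seen.

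The members differed in where their peaks stood in the RH30 files. Place in the file served as an approximate rank, which the headers do not state: on each chromosome, entries stood nearly in the order of the numbers that HOMER gave them. The median Spearman rho over chromosomes was 0.983 with sgCtrl1, 0.94 with sgCtrl2 and 0.961 in each edited list. The SP2 peak stood at place 16 of 4025 with sgCtrl1, 74 of 6687 with sgCtrl2, 11 of 2451 with sgCCAAT2a and 19 of 2558 with sgCCAAT2b. In every list it was thus among the first 1.11% of entries. The common SP1 peak stood at places 23, 283, 45 and 23, within the first 4.23%. The NFYA peak stood within the first 14.5% and the outer NFYC peak within the first 24.4% of every list. Those of SP3 ranged from 12.3% to 61.3% and those of the far SP4 site from 17.3% to 82.0%. The lists differ in length and depth, from 10.5 M tags with sgCtrl2 to 28.2 M with sgCCAAT2b, and peaks took up 1.22% and 1.46% of tags in the edited libraries against 2.4% and 3.1% in the controls. A later place in the shorter edited lists was therefore not read as a change.

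The RH4 lists are in order of position on 23 of 24 chromosomes, so place gives no rank there, but their widths vary. The SP1 and SP4 NFYB peaks, 875 and 877 bp, were wider than 99.3% of that list, whose median is 411 bp. SP2, NFYA and the outer NFYC peak were wider than 98.3%, 97.3% and 97.0% of it, and SP3, at 532 bp, than 85.6%. In the RH4 NFYC list the SP2 peak was wider than 99.6%, the SP1 peak than 99.4% and the NFYA peak than 96.6% of entries. The outer NFYC peak was wider than 85.0% of that list, the far SP4 peak than 84.4%, SP3 than 72.8%, NFYB than 28.9% and the near SP4 peak than 12.1%. The deposited list of places shared by both subunits held an entry at each of the 7 genes, of 681 bp at SP1, 677 bp at SP2, 515 bp at NFYA and 128 bp at NFYB, against a median of 217 bp.

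**Figure D3:**
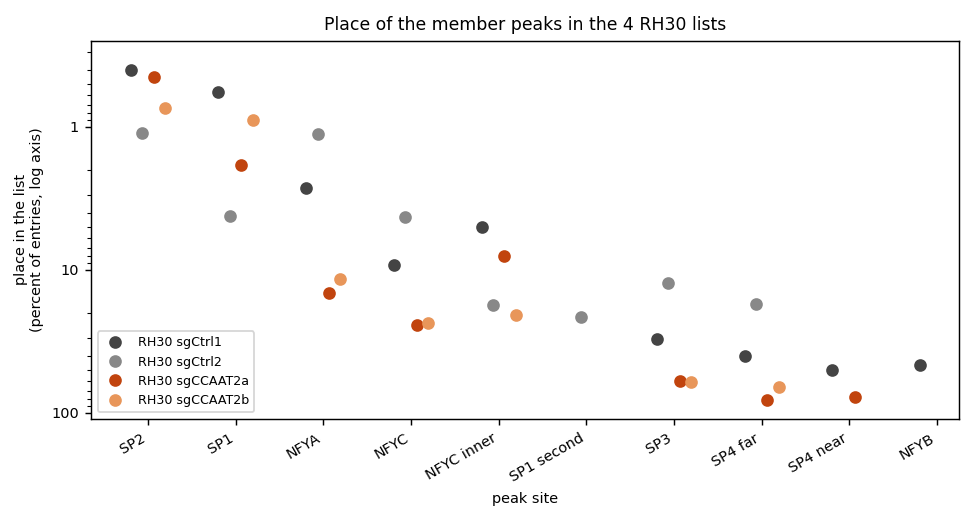
Place of each member peak in the 4 RH30 lists as a percent of the entries of that list (vertical axis, logarithmic, first entries at the top), with 1 point per list and the peak sites along the horizontal axis. NFYC inner is the site at the inner start, SP1 second the peak found with sgCtrl2 only, and SP4 far and SP4 near the sites farther from and closer to its start. SP2 is within the first 1.11% of all 4 lists, and SP4 far ranges from 17.3% to 82.0%.

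The authors' deposited tables compare sgCtrl2 with each other RH30 library at the sgCtrl2 peaks, where an entry had to reach 2.5-fold at a Poisson cutoff of 0.001 between single libraries. All of them use the same sgCtrl2 library. Over the whole list the authors' deposited tables held 61.9% of sgCtrl2 peaks as higher than with sgCCAAT2a, 60.7% as higher than with sgCCAAT2b and 36.2% as higher than with sgCtrl1. At gene ends the authors' deposited tables listed 57.0% of 2900 sgCtrl2 peaks as higher than with sgCCAAT2a, 51.1% as higher than with sgCCAAT2b and 11.8% as higher than with sgCtrl1. Of the 7 sgCtrl2 peaks at ends of the 9 genes, the authors' deposited tables listed 5 over sgCCAAT2a, the same 5 over sgCCAAT2b and 0 over sgCtrl1. In the authors' deposited tables these 5 were the peaks of NFYA, NFYC, SP3 and SP4 and the second SP1 peak. The common SP1 peak, the SP2 peak and the inner NFYC peak were in none of the authors' deposited tables. A listing did not remove the call, since NFYA, NFYC, SP3 and SP4 kept a peak at the same site in both edited lists, whereas the second SP1 peak had no counterpart in any other list. Among all sgCtrl2 peaks at gene ends 34.3% were in both edited tables and not in the sgCtrl1 table, and 36.1% were in none of the authors' deposited tables. The part of the lower share of tags in peaks in the edited libraries in these listings was not tested.

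At each of the 7 genes with a peak, the lists placed it at a common site: for NFYA, NFYC, SP1, SP2, SP3 and SP4 all 15 pairs of libraries overlapped by at least 1 bp, and for NFYB all 3 pairs. With 50% of both peaks required, 4 pairs (SP2) to 11 pairs (SP3) of 15 remained at the genes found in all 6 libraries. At NFYB 2 of 3 pairs remained. Peak width limits these counts. RH30 peaks of at most 197 bp cannot make up 50% of the RH4 NFYB peaks of 532 to 877 bp at the genes found in all libraries. Nor can they for the RH4 NFYC peaks of 515, 681 and 708 bp at NFYA, SP1 and SP2. The counts over 15 pairs were therefore not compared between genes. Among the 6 pairs of RH30 lists, NFYC, SP1, SP3 and SP4 overlapped by that much in 6, NFYA in 4 and SP2 in 3.

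Genes of related factors were counted in the same way, with no test against the 9 genes. None of the 5 histone fold relatives of NFYB and NFYC (POLE3, POLE4 and CHRAC1 of chromatin and replication complexes, and the transcriptional repressors DR1 and DRAP1) had a peak in any library. Of 19 other SP and KLF genes 4 had one in all 6 libraries, including KLF10, KLF6 and KLF9, and 13 had none. Of 11 helix-loop-helix zipper relatives of the USF factors 4 had one in all 6, including MLX, a partner in the sensing of glucose, MNT, a repressor that pairs with MAX, and SREBF2, the regulator of cholesterol synthesis, and 6 had none. Among 17 other factors of proximal promoters 6 had one in all 6, including the cell cycle regulators E2F1 and E2F3 and the ETS factor ELK1, and 9 had none. The median number of libraries with a peak was 0 in these 4 lists and in all protein-coding genes, so it does not tell them apart. A peak in all 6 libraries was found at 7.03% of all protein-coding genes, beside 0 of 5, 4 of 19, 4 of 11 and 6 of 17 here.

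**Figure D4:**
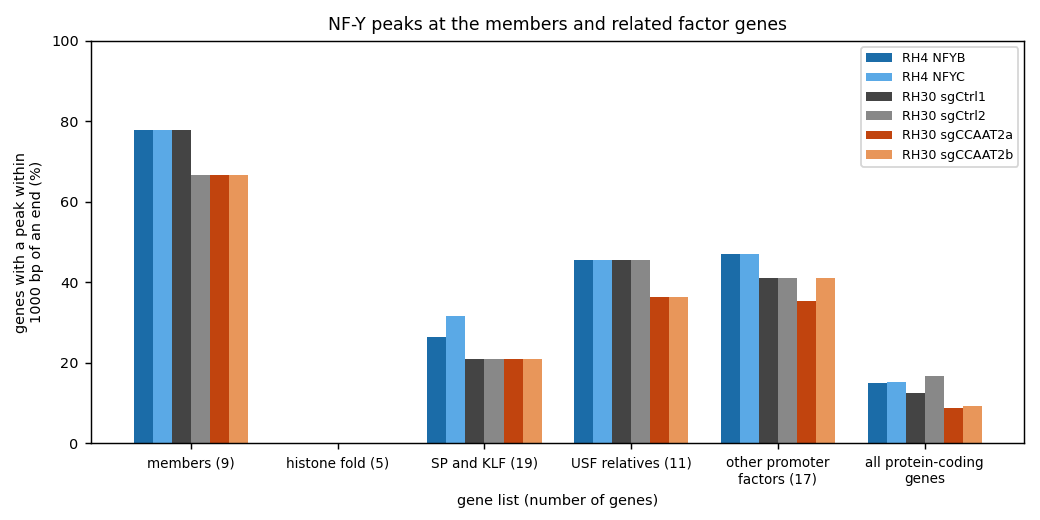
Percent of genes with an NF-Y peak within 1000 bp of an end (vertical axis, from 0) in each of the 6 libraries (bars) for the 9 members, the 4 lists of related factors with the number of genes in parentheses, and all protein-coding genes. The histone fold list has no bar because no peak was found at its 5 genes, and the bars of all genes lie between 8.9% and 16.8%.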

How the data were processed

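The authors deposited peak positions in bp without heights, and the score in column 5 of the 10 deposited files is 1 throughout. HOMER made the RH30 lists one library at a time (factor style, at least 2-fold over an input and 4-fold over the surrounding region) and the differential tables, per the file headers. For RH4 the peak caller and its settings are not stated in what was used. The submitters' processing notes name deepTools, HOMER, bedtools, MACS2, Bowtie2, Trimmomatic and FastQC, with hg38 as build.

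Genes were the 20037 protein-coding genes on chromosomes 1 to 22, X and Y of the RefSeq table for GRCh38.p14, and promoters the 22199 RefSeq entries of these genes. Overlaps of at least 1 bp were counted with pandas 2.3.3 under Python 3.11.15; on simulated lists the gene counts equalled bedtools 2.31.1 in 6 of 6 cases. Motifs were searched on both strands, overlapping matches included. RH30 depth was 10.5 to 28.2 M tags per the file headers, and that of RH4 is unknown. With 1 library per guide and antibody, no p-value was computed.

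The members and the lists of related genes were chosen with earlier results of these data known. Named genes were the 9 members; at most 3 genes of each related list with a peak in all 6 libraries, alphabetically; the 3 genes most like a member found in 1 to 5 libraries; and protein-coding neighbours with an end within 1000 bp of a member peak. Alternatives were windows of 500 and 3000 bp, the peak centre in the window, listed starts only (NFYB has no entry), the first part of each RH30 list in file order with the widest part of each RH4 list, RH4 consensus entries, and 50% overlap of both peaks. OARD1, SP2-DT and NFYC-AS1 were named after their values were seen, and so was the count of SP2 matches that share bases.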

Additional observations from a re-analysis of the deposited data

How the results depend on the processing

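Of 105 recomputed values, 103 stayed within 1.5 times the reported count. These include USF1, USF2 and the histone fold list, which were 0 at every setting. Within that bound, the genes with a peak in all 6 libraries went from 6 to 5 with the 500 bp window. In the stricter part of each list (first entries for RH30, widest peaks for RH4) they went to 4. The first of the 2 exceptions was the number of members whose peaks overlapped between all lists that hold one. It went from 7 to 0 when 50% of both peaks had to be shared, a count that the peak widths fix in advance. RH30 peaks of at most 197 bp cannot fill 50% of the RH4 NFYB peaks, which were 532 to 877 bp at 6 genes. At NFYB the RH4 peaks of 258 and 128 bp could not share 50% of both. The other exception was NFYB, which went from 3 libraries to 1 in the stricter part of each list. It dropped out of both RH4 lists by peak width, which was not shown to measure confidence in a call. The stricter part held 4 of the 9 genes in each edited list. Of all protein-coding genes it held 5.61% with sgCCAAT2a and 5.98% with sgCCAAT2b, against 8.9% and 9.27% in the full lists. With a window of 500 bp SP4 was lost with sgCCAAT2b only. The search for motifs in all bases under a peak was not run for want of a genome sequence in what was used. No paired analysis was possible because each guide and antibody has 1 library. Counting matches that share bases once, an alternative chosen after seeing the data, gave SP2 7 matches. Depth is unknown for RH4, and a peak missing from a list may lie below the caller's threshold.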

Other observations

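A further site near SP2 lay outside the window that scores a gene. It was in all 4 RH30 lists and in neither RH4 list, at 47941361 to 47941549 of chromosome 17 with sgCtrl1, and its places there were 1188 of 4025, 2330 of 6687, 739 of 2451 and 707 of 2558 for sgCtrl1, sgCtrl2, sgCCAAT2a and sgCCAAT2b. It was singled out after the values were seen, the difference between lines was not tested, and the sgCtrl2 peak there was in none of the authors' deposited tables.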
